A study of Bos taurus with 2 samples.

Results

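The let-7 family is a set of short regulatory RNAs, miRNAs, that share the bases by which they recognise their target messenger RNAs. let-7 was found in the worm Caenorhabditis elegans as a switch of developmental timing. In mammals its members accumulate as cells differentiate, their maturation is blocked by the LIN28 proteins, and their known targets include RAS genes and HMGA2. miR-98 carries the same target-recognition bases under another name, and let-7 members are well known in sequenced cow milk. The members here were chosen by name: every bovine array miRNA called let-7a, let-7b, let-7c, let-7d, let-7e, let-7f, let-7g, let-7i or miR-98, with or without an arm suffix. That gave 10 of the 670 miRNAs on the array, on 22 of 1465 probes and 600 spots per array. The tenth, let-7a*, is the opposite strand of a let-7a hairpin. It does not carry the family's recognition bases and is listed only because its name fits.

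The study split Holstein cow milk whey by a spin labelled as 10000 g for 90 min at 4 °C. The washed pellet is the exosome fraction, named for small membrane vesicles, and the liquid left above it is the supernatant. The title of the supernatant sample calls the spin ultracentrifugation, and the vesicle content of the fractions was not tested. For each fraction, equal parts of RNA from 3 milk samples were combined. A 40 ng portion carried the dye Cy3 onto a 1-colour bovine miRNA array, and each fraction thus has a single array, 1 against 1. No difference below has a replicate check, no test was run, and each ± is the SD between spots of 1 array, which covers technical spread only. Because equal RNA amounts were labelled, the signals describe the make-up of each RNA and not the amount per volume of milk, and more vesicles and more RNA per vesicle cannot be told apart. Values are the scanner software's processed signals, which are background-subtracted and not scaled between arrays, unless a sentence says otherwise. Detection of a probe required the software's well-above-background flag on 50% or more of its spots, and a miRNA counted as detected with 1 such probe. Signals of different probes depend on each probe's binding and are not set against each other as levels.

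The array carries 2 probes for each member except let-7a*, which has 4. The letters of the longer probes are shown because they tell which members a probe can distinguish. Capitals mark the bases that differ from the longer let-7a probe when the probes are laid side by side without gaps.
let-7a: aactatacaacctactacct
let-7b: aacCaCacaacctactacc
let-7c: aacCatacaacctactacc
let-7d: aactatGcaacctactacc
let-7e: actatacaacctCctacct
let-7f: aactatacaaTctactacctc
let-7g: aactGtacaaActactacctc
let-7i: aacAGCacaaActactacctc
miR-98: aacAatacaacTtactacctc

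Of the 9 probes, let-7e lacks the first position of the let-7a probe, and let-7b, let-7c and let-7d lack its last. Among the probes that covered a position, 13 of the 20 positions of the let-7a probe were the same and the other 7 varied. Counted from its 5′ end, let-7c differed from let-7a by T4C alone and let-7b by T4C and T6C. A single substitution also set let-7d (A7G), let-7e (A14C) and let-7f (C11T) apart from let-7a. let-7g differed by A5G and C11A, miR-98 by T4A and C12T, and let-7i by T4A, A5G, T6C and C11A. Among the 36 pairs of longer probes, 5 pairs differed by 1 base: let-7a with let-7c, let-7d, let-7e and let-7f, and let-7b with let-7c. A signal on one of these probes can therefore include RNA of a close relative, and how much was not tested. Among probes of the other 660 miRNAs, 0 came within 3 mismatches of a longer family probe. In each member the shorter probe was the longer one without its last base, except let-7a*, whose 4 probes step down by 1 base to 3 fewer.

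The array design places these probes in the HGSC Btau_3.1 build and does not state the strand; for probes whose listed interval is 1 base shorter than the probe, an end is known only to within 1 base. The let-7b probe lies at chr5:123308021-123308038, next to a let-7a site at chr5:123307217-123307236. let-7a has further sites at chr8:89743306-89743325 and chr15:31455132-31455151. let-7f lies at chr8:89743659-89743679 and chrX:58738534-58738554, and let-7d at chr8:89745869-89745886. The let-7c probe lies at chr1:20136251-20136268, let-7e at chr18:57588175-57588192 and let-7g at chr22:49631994-49632013. let-7i is placed at chr5:55133079-55133098 and miR-98 at chrX:58737645-58737664. A probe of let-7a or let-7f reads the sum over all genes that make that miRNA. RefSeq lists 12 genes of the family in its ARS-UCD2.0 annotation, from which only names and neighbourhood were taken. The let-7b gene and a let-7a gene lie in the same protein-coding gene, LOC101903200, the let-7g gene overlaps WDR82, and the miR-98 gene and a let-7f gene overlap HUWE1. The table does not say whether these overlaps are exonic or intronic.

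let-7 family signal was seen mainly in the exosome fraction. On the exosome array 6 of the 10 members were detected, let-7a, let-7b, let-7c, let-7d, let-7f and let-7g, where 9.85% of all 670 miRNAs were. On the supernatant array let-7b was the 1 member detected, where 12.7% of all miRNAs were, and so the 1 member seen on both arrays, as 4.48% of all miRNAs were. The other 5 were detected on the exosome array only, a pattern held by 5.37% of the miRNAs on the array, and 0 members were detected on the supernatant array only, against 8.21%. At the level of probes, 10 of 22 were detected in exosome and 2 of 22 in supernatant, against 7.03% and 11.3% of all probes. For 12 of the 22 probes every kept exosome spot read above every kept supernatant spot, against 4.1% of all 1465 probes. With outlier spots kept the count was 10, against 3.82%, without the longer let-7d and the shorter let-7g probe. Spots of 1 array are not replicates of a fraction.

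**Figure D1:**
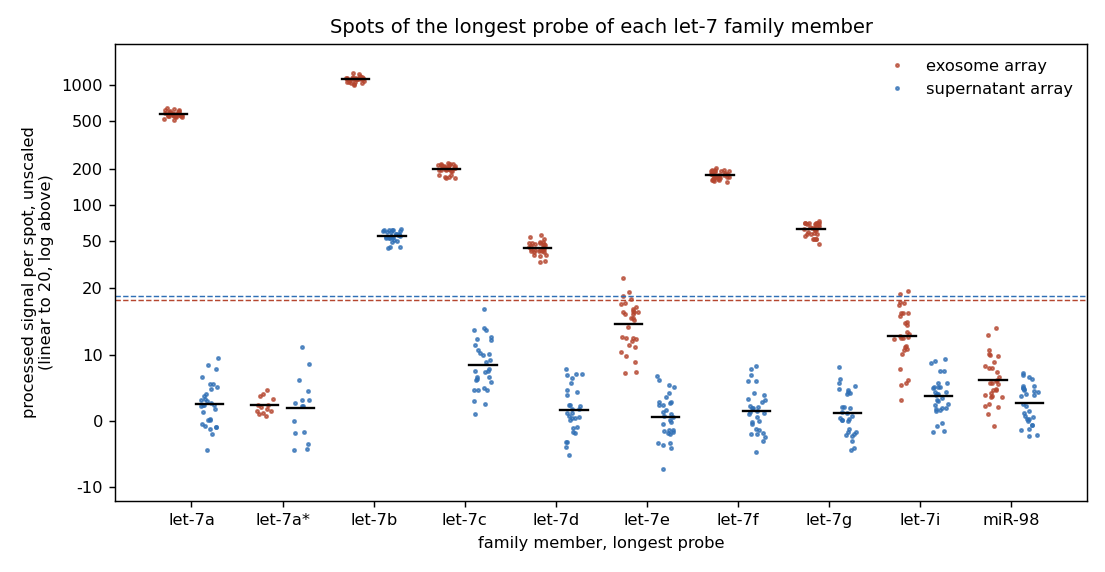
Processed signal of every kept spot of the longest probe of each family member, exosome array (red, left) and supernatant array (blue, right). The axis is linear up to 20 and logarithmic above, black bars are means, and dashed lines are the lowest mean of a detected probe on each array (18.2 exosome, 18.8 supernatant). Exosome spots of let-7a, let-7b, let-7c, let-7d, let-7f and let-7g lie above all of their supernatant spots, and on the supernatant array let-7b alone lies above the dashed line. Heights of different members come from different probes and cannot be compared.

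let-7b (bta-let-7b on the array) was the member seen in both fractions. Its longer probe read from 1008 over a median of 1125 to 1255 on the exosome array, against 43.4, 54.7 and 62.0 on the supernatant array. Its shorter probe read 468, 540.2 and 597 on the exosome array, against 23.0, 33.7 and 45.5 on the supernatant array. Every kept spot of both probes was well above background on both arrays, and the ranges were far apart. The longer probe differed by 4.36 and the shorter by 3.95 on the log2 scale, exosome over supernatant, or 20.5-fold and 15.5-fold. Averaged over its probes bta-let-7b read 828 ± 47.6 in exosome (60 spots) against 44.6 ± 5.26 in supernatant (59 spots), a log2 difference of 4.21 with a spot SD of 0.19.

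The size of that difference depended on how the arrays were put on a common scale, but its direction did not. The main scaling divided each array by a 75th percentile taken over 53 probes that both arrays detected, 473 for exosome and 15030 for supernatant, and gave let-7b a log2 difference of 9.20. Spike-in RNAs added ahead of the labelling step, the labelling controls, were brighter on the exosome array by 1.61 on the log2 scale, and with them as the scale it was 2.61. The hybridisation controls, added after labelling, differed by -0.10, and scaling to them gave 4.31. Among the 30 miRNAs detected on both arrays let-7b ranked first of 30 in this difference. The 3 nearest to it, by distance of the log2 differences over the 2 arrays, were miR-2478, miR-200c and miR-375, which lay 1.07, 1.27 and 2.92 log2 units lower. Those distances do not depend on a constant scaling. miR-375 and miR-200c each had only 1 of 2 probes detected on the supernatant array.

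let-7a, the member with the most genes, was detected by both probes on the exosome array and by neither on the supernatant array. Its longer probe read 508, 566 and 637 (lowest, median, highest spot) on the exosome array, against -4.38, 2.46 and 9.45 on the supernatant array. Its shorter probe read 168, 199 and 222 on the exosome array, against -4.38, 2.32 and 7.63 on the supernatant array. Both let-7a probes averaged, on the supernatant array, below the software's NegativeControl spots, which read 4.67 ± 3.24 in exosome (395 spots) against 3.71 ± 3.02 in supernatant (391 spots). A miRNA measured on 1 side only has a lower bound: its exosome signal over the lowest mean of a detected probe on the supernatant array, 18.8. Averaged over probes bta-let-7a read 385 ± 23.9 in exosome against 2.32 ± 3.27 in supernatant, which made it at least 20.5-fold higher in exosome without scaling and at least 649.8-fold after 75th-percentile scaling.

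The bound of let-7a exceeded the measured difference of let-7b by 1.10-fold, a comparison that a constant scaling does not move. The gap of 0.14 on the log2 scale was under the spot SD of let-7b, which leaves out the spread between probes. It was also small beside the distance between the log2 differences of the let-7b probes, 3.95 and 4.36. With 1 array per fraction, these data set no order between let-7a and let-7b. By probe, the bound of the longer let-7a probe was 30.4-fold against 20.5-fold measured for let-7b, and that of the shorter let-7a probe was 10.5-fold against 15.5-fold. The bounds of let-7c, let-7d, let-7f and let-7g lay below the let-7b value and do not tell whether their differences were smaller or larger.

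let-7c and let-7f were likewise detected by both probes on the exosome array and by none on the supernatant array. The longer let-7c probe read 167, 201 and 224 on the exosome array, against 1.07, 7.72 and 16.8 on the supernatant array. The longer let-7f probe read 156, 175 and 203 on the exosome array, against -4.64, 1.48 and 8.30 on the supernatant array. Neither pair of ranges overlapped. Averaged over probes bta-let-7c read 112 ± 12.0 in exosome against 5.71 ± 3.25 in supernatant, at least 5.93-fold higher in exosome without scaling. bta-let-7f read 100.2 ± 9.64 in exosome against 1.65 ± 3.26 in supernatant, at least 5.33-fold higher without scaling. Their shorter probes gave little room: 24.6 ± 4.70 for let-7c and 23.8 ± 3.69 for let-7f on the exosome array stood only 1.31-fold and 1.26-fold above the supernatant limit.

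let-7c was below detection on the supernatant array, with a longer probe that read above the negative controls' mean of 3.71. That probe read 8.46 ± 3.83 there, and 27 of 30 spots were positive and significant by the software's weaker flag, while 0 were well above background. The let-7c and let-7b probes differ at 1 base, and let-7b was detected on that array. The part of let-7b RNA in the let-7c reading was not tested. The let-7a probe, which differs from let-7c by 1 base and from let-7b by 2, had 9 of 30 positive and significant spots on the supernatant array. Each probe binds differently and also reads its own member's RNA, so these counts are given as description only. At 3 bases from let-7b, the longer let-7i and miR-98 probes had 16 of 30 and 15 of 30 such spots. The longer let-7d, let-7e and let-7f probes, also at 3 bases, had 9 of 29, 5 of 30 and 7 of 30.

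let-7d and let-7g were detected on the exosome array by the longer probe alone. The longer bta-let-7d probe read 33.1, 42.8 and 55.6 on the exosome array, against -5.15, 1.22 and 7.78 on the supernatant array. The longer bta-let-7g probe read 47.0, 62.8 and 73.5 on the exosome array, against -4.36, 0.83 and 8.18 on the supernatant array. For both members the ranges were clearly apart. The shorter let-7d probe read 9.49 ± 2.34 on the exosome array with 0 of 27 spots well above background, and the shorter let-7g probe read 17.0 ± 3.11 with 12 of 27, just short of the 50% needed. As means over probes let-7d was at least 1.41-fold and let-7g at least 2.11-fold higher in exosome without scaling, and the longer probes alone gave bounds of 2.32-fold and 3.31-fold. An outlier supernatant spot, left out here, of the longer let-7d probe read 73.7, above all of its exosome spots; the other 29 spots of that probe did not exceed 7.78. Likewise an outlier supernatant spot of the shorter let-7g probe read 30.2, above the highest kept exosome spot of that probe, 23.8.

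let-7e, let-7i and miR-98 were not called detected on either array, but their longer probes read above the negative controls' mean of 4.67 on the exosome array. The longer bta-let-7e probe read 14.6 ± 3.83 in exosome against 0.61 ± 3.32 in supernatant, and all 30 exosome spots were positive and significant while 5 were well above background. Its lowest exosome spot, 7.19, lay above its highest supernatant spot, 6.79. The longer bta-let-7i probe read 12.8 ± 4.22 on the exosome array, with 4 of 29 spots well above background, and 3.81 ± 2.90 on the supernatant array, and these ranges overlapped. The longer bta-miR-98 probe read 6.15 ± 3.43 in exosome against 2.64 ± 2.89 in supernatant, with 0 of 30 spots well above background on either. No fold is given for these members, since neither side reached the limit.

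How many members count as detected near this limit was a matter of the rule. The software's own flag per miRNA added let-7e and let-7i on the exosome array, for 8 members against 11.8% of all miRNAs, and left 1 on the supernatant array against 13.6%. In the deposited value table, which holds log2 of the software's total signal over its placeholder of 0.1, let-7e stood at 5.95 and let-7i at 5.77 on the exosome array and at 0 on the supernatant array. Counting positive and significant spots gave 9 members on the exosome array, all but let-7a*, and 4 on the supernatant array, let-7b, let-7c, let-7i and miR-98. That weaker rule also called 26.3% of all miRNAs in exosome and 27% in supernatant.

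**Figure D2:**
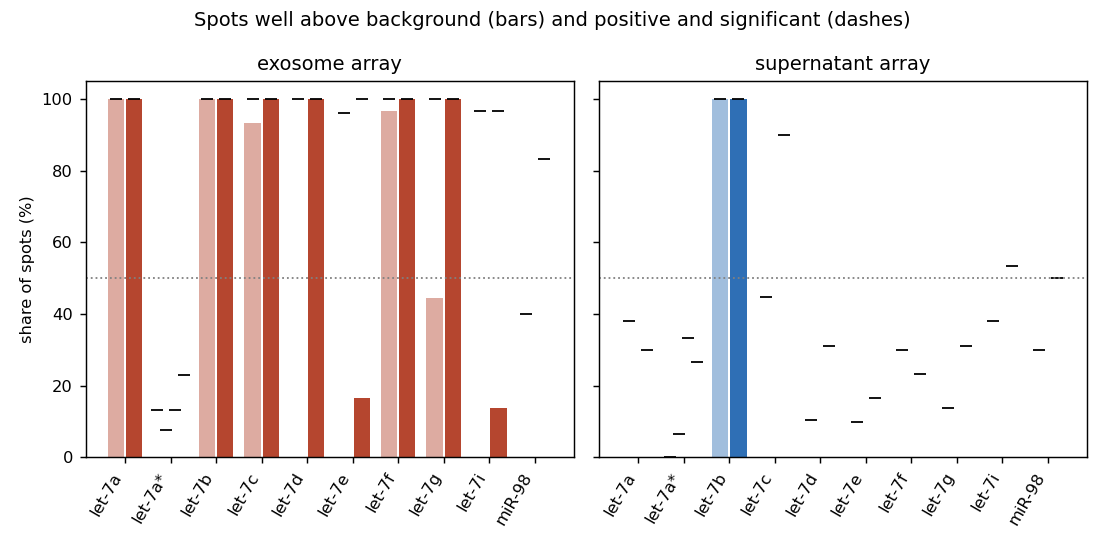
Share of kept spots (%) flagged well above background (bars) for each probe of each member, shortest probe left and longest right in full colour, on the exosome array (left panel) and the supernatant array (right panel). Black dashes are the share of positive and significant spots, and the dotted line is the 50% needed for detection. On the exosome array 10 bars pass the line, and on the supernatant array only those of let-7b do, while the dash of the longer let-7c probe reaches 27 of 30 spots there.

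bta-let-7a*, the opposite hairpin strand, read at or below the mean of the negative controls in both fractions. Its 4 probes averaged -0.75, -0.40, 1.15 and 2.34 on the exosome array, against -2.52, -1.26, 1.57 and 1.90 on the supernatant array. The spot ranges of all 4 overlapped between arrays, with 0 spots well above background. Each of these probes has 15 spots before outliers are left out. let-7a* therefore stood apart from let-7a, whose probes were well above background in every kept exosome spot; because the probes differ, no ratio of the strands is given.

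Members encoded side by side did not share a single pattern. On chromosome 8, where RefSeq lists a let-7a, a let-7f and the let-7d gene within 10 kb of each other, all 3 miRNAs were detected on the exosome array only. let-7b and its let-7a neighbour on chromosome 5 were both detected on the exosome array, and let-7b also on the supernatant array. miR-98 was undetected while let-7f, whose other gene lies beside it on chromosome X, was detected on the exosome array; the array cannot tell which let-7f gene the RNA came from. Of 6 array miRNAs named miR-99a, miR-99a*, miR-99b, miR-100, miR-125a or miR-125b, whose genes lie in clusters with let-7 genes in mammals, 2 were detected, both on the exosome array only. That pattern was held by 5.37% of all miRNAs, and a list of 6 is too short to be set apart from that share. miR-125b read 35.6 ± 5.64 in exosome against 3.81 ± 2.91 in supernatant, and miR-99a, whose gene lies beside let-7c, read 17.8 ± 3.06 in exosome and 5.74 ± 3.42 in supernatant. The exosome mean of miR-99a lay below the supernatant limit of 18.8, so it has no bound without scaling. The partners of let-7e, miR-99b and miR-125a, were undetected and read -0.19 and -1.29 on the exosome array, below the negative controls' mean, while let-7e was undetected here but called there by the software's flag. miR-100, which neighbours a let-7a gene, was undetected too.

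The 6 detected members had a median log2 difference of 7.48 after scaling and 2.49 without, with dim sides at their limit. Over all miRNAs with a value the median was 4.65 after scaling (72 miRNAs) and -0.98 without (106 miRNAs). Over all exosome-only miRNAs on the array it was 5.37 after scaling and 0.67 without, and for the 5 exosome-only members 2.41 without. A bound on the wrong side of 0 was left out, so the 72 and the 106 are different sets. After scaling the set lacks many supernatant-only miRNAs, and the 0.67 covers only bounds above 0. After scaling all 6 members were at least 2-fold higher in exosome, where 43% of the 121 miRNAs detected on at least 1 array were. Without scaling 5 were, where 12.4% were, and the bound of let-7d, 1.41-fold, did not reach 2-fold, which does not show that its difference was smaller. For the 5 exosome-only members the scaled count was fixed by the detection call. The dimmest detected exosome miRNA (8.21, divided by 473) already stood over 2-fold above the supernatant limit (18.8, divided by 15030). The 121 also include 55 miRNAs detected on the supernatant array only, which cannot count as higher. At least 2-fold lower in exosome were 0 members, against 9.09% of those 121 miRNAs after scaling and 43.8% without. For the 5 exosome-only members that 0 was fixed, since their bounds are kept only above 0. A supernatant-only miRNA keeps a bound only below 0, which left many without a value after scaling. Among the detected members only let-7b could have come out lower. The 6 detected members were the ones bright enough on the exosome array to be called, so the counts describe them and do not speak for let-7e, let-7i, miR-98 and let-7a*.

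**Figure D3:**
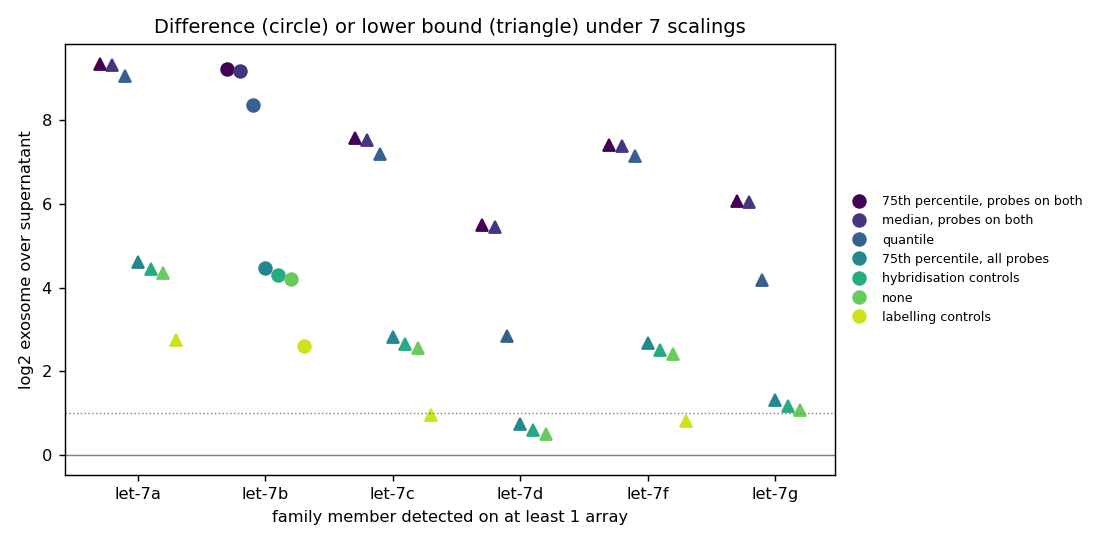
Log2 difference of let-7b (circles) and log2 lower bounds of the other detected members (triangles), exosome over supernatant, under 7 ways of scaling the arrays; the solid line is 0 and the dotted line is 2-fold. let-7b stays above 0 under all 7; a bound is drawn only where it exceeds 0. let-7b spans 2.61 to 9.20 and let-7a 2.75 to 9.34. The let-7d and let-7g bounds vanish when scaled to the labelling controls, where their exosome signals do not exceed the supernatant limit.

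With the labelling controls as the scale, let-7a and let-7b were at least 2-fold higher in exosome, with log2 values of 2.75 and 2.61. The bounds of let-7c (0.96) and let-7f (0.81) lay under 2-fold, and let-7d and let-7g had no bound, so the data do not place these members on either side of 2-fold under that scale. The share of the labelling difference in the exosome excess of these 4 members was not tested.

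The family probes were low in G and C. The longest probe of a member had a median of 40.1% G and C (range 33.3% to 47.4%), below the median over all array miRNAs. let-7b, the member also seen in the supernatant, had the highest share, 9 of 19 bases. Next came let-7i with 9 of 21, then let-7c, let-7d and let-7e with 8 of 19 each, all undetected in the supernatant. miRNAs detected on both arrays had a median of 70.7%, those on the supernatant array only 71.4% and those on the exosome array only 46.9%. The part of base composition in the let-7b supernatant signal was not tested.

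Marker miRNAs of epithelium, leukocytes, red cells and muscle are given as counts, and the cell origin of the RNA was not tested. Of the miR-200 group of 5 epithelial miRNAs, both arrays detected 2, the exosome array alone 2 more and neither array 1, where 4.48% and 5.37% of all miRNAs had these 2 patterns. The summed signal was 768 in exosome and 231 in supernatant, mostly from miR-200c (343 and 44.7) and miR-141 (302 and 181). All sums here are unscaled and add signals of different probes. The labelling controls were brighter on the exosome array by 1.61 on the log2 scale, and the share of that in the sums was not tested. Of 8 leukocyte miRNAs 1 was detected, miR-223, on the supernatant array only, and the summed signals were 3.30 in exosome and 15.5 in supernatant. Of 3 red cell miRNAs 1 was detected on the supernatant array only, with sums of -2.10 in exosome and 33.4 in supernatant. Of 4 muscle miRNAs 2 were, with sums of 5.31 in exosome and 158 in supernatant. On the exosome array leukocyte, red cell and muscle markers were all undetected, where 9.85% of all 670 miRNAs were detected. Detected on the supernatant array only were 8.21% of all miRNAs. At such shares lists this short can hold no detected miRNA, so the exosome counts of these 3 lists do not set them apart from the array. The other counts are description, and no test was run on them. The 2 muscle miRNAs in supernatant were miR-133a (78.9) and miR-133b (74.8). Whether their probes read each other's RNA was not tested. miR-223 and miR-206 read 6.83 and 6.12 on the exosome array, above the negative controls' mean of 4.67, and the rest of these 3 lists read below it.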

How the data were processed

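Per the file headers, the scanner software was Agilent Feature Extraction 10.7.3.1, and the deposited scanner values are intensities, background-subtracted by the software and not scaled between arrays. The authors' deposited value table holds log2 of the software's total signal over 0.1, to within 6.23e-06, with a median of 0 in both columns (691 entries). Family spots flagged as outliers were left out, 18 of 600 in exosome and 8 of 600 in supernatant. Spots were averaged per probe and probes per miRNA on the linear scale, and the probes' variances between spots were averaged for a miRNA's SD. The scale was a 75th percentile over 53 probes that both arrays detected. Bounds used the lowest mean of a detected probe on the dim array. No test was run, as each fraction has 1 array, and the number of arrays limits the precision. No spot was saturated.

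All 10 members were named by rule. The members and lists were chosen with earlier results of these data known. Mature miRNA sequences were not used here, so probes were compared with each other in place of the planned match to mature sequences, at shifts of up to 3 bases. Alternatives covered detection, scaling, normexp background correction (limma 3.58.1, R 4.3.3), probe summary, outliers and odd or even spots. Signal summary and detection were tested on simulated data without scaling. Differences were checked there only for miRNAs detected on both simulated arrays, so the scaling and the bounds were not checked. Python 3.11.15, numpy 2.4.6 and pandas 2.3.3 were used.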

Additional observations from a re-analysis of the deposited data

How the results depend on the processing

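The exosome excess of let-7b kept its direction under all alternatives. Bounds of the other 5 detected members exist only where they exceed 0, so their direction is fixed; let-7d and let-7g had none with labelling controls. No paired analysis was possible because each fraction has 1 array. The log2 difference of let-7b (9.20) became 4.21 without scaling and in the deposited value table, 4.47 with the 75th percentile of all miRNA probes, 4.31 with hybridisation controls, 2.61 with labelling controls, 8.36 with quantile normalization, 7.58 with normexp and an offset of 50, 6.33 with positive and significant spots, and 9.45 with the software's total signal. The family median (7.48) became 2.49, 2.74, 2.59, 1.79, 7.15, 5.53, 6.02 and 8.81 under no scaling, the 75th percentile of all probes, hybridisation controls, labelling controls, quantile normalization, normexp, positive and significant spots and the software's total. It was 3.46 in the deposited value table, 8.38 with every probe required, 6.73 with the software's flag, 7.16 with 90% of spots required, and 8.30 with the brightest or the longest probe. With positive and significant spots 4 members were detected on the supernatant array against 1, and 17 and 5 probes on the exosome and supernatant arrays against 10 and 2. With labelling controls 2 members were at least 2-fold apart against 6. The normexp offset exceeds the dim signals and shrinks such differences by construction, and requiring every probe or taking the software's flag changed only which members were counted. The other 2 detection rules also changed the scale or the limit. An alternative limit, chosen after seeing the data, took the dimmest detected miRNA (7.04 in supernatant), an average that includes undetected probes; it raised the family median to 8.90. Outlier spots kept and odd or even spots moved the let-7b difference and the family median by less than the spread between spots, but outlier spots kept moved the let-7a bound to 9.21 against 9.34 and the let-7f bound to 7.26 against 7.40. Dim signals near the limit, as of let-7e and let-7i, are where signal over background decides the call.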
